A study of Bos taurus with 8 samples.

Results

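The genes described here are 10 transcription factors known from the differentiation of trophoblast, the outer lineage of the embryo that builds the fetal part of the placenta. They are GCM1, DLX3, DLX4, DLX5, OVOL1, ASCL2, MSX2, ID2, ETS2 and ESRRB, chosen by name from a table of 14970 bovine genes. All 10 had a row, and 8 of them reached the level set for testing, which was 0.5 RPKM in at least 4 libraries. RPKM is the number of reads scaled by exon length and library size, as the authors deposited it, so that levels of different genes can be compared.

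The libraries came from cattle trophectoderm outgrowths, which are sheets of cells that spread from the outer layer of a hatched embryo. Every embryo was produced in vitro and plated on collagen IV at day 10 in trophectoderm growth medium, and both groups were cultured alike. Outgrowths of single embryos were collected at day 35 (4 libraries, called A to D) or at day 41 (4 libraries, called E to H), and the letters follow the column order of the table. The breed is not given, and the columns do not say which numbered outgrowth they hold, so it is not known whether the outgrowth numbered 1 on both days was one embryo. Such cultures hold whatever cell types the outgrowth contains, and in bulk RNA a lower value can stand for fewer cells of a type or for less RNA per cell, which cannot be told apart.

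Trophoblast cells leave a dividing progenitor state and become secretory or multinucleated cells, and in cattle the latter are binucleate cells that make placental lactogen and pregnancy-associated glycoproteins. GCM1 drives fusion and terminal differentiation of trophoblast in mouse and human. The DLX genes and MSX2 encode homeodomain proteins, of which the DLX proteins mostly activate and MSX2 represses transcription. OVOL1 encodes a zinc finger repressor of progenitor genes in human trophoblast, and ASCL2 a basic helix-loop-helix factor needed for the mouse placenta. ID2 has the helix-loop-helix part without the basic region that binds DNA, so it withholds E proteins from their partners. ETS2 activates the interferon tau promoter in cattle, and ESRRB is an orphan nuclear receptor that maintains trophoblast stem cells in mouse.

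Each library held between 106402848 and 158034430 reads, as recovered from its RPKM values. The trophectoderm identity genes KRT8 and KRT18, keratins of simple epithelia, lay between 1700 and 2748 RPKM and between 768 and 1359 RPKM in every library. The 10 trophectoderm identity markers summed to 11992 to 14255 RPKM in libraries A to D and to 8477 (G) to 11666 RPKM in E to H, which did not overlap. Library A stood apart, with a mean correlation of 0.954 with the other libraries against 0.966 to 0.976 for the rest. Summed RPKM of 11 hypoblast markers ran from 56.5 (library D) to 597 (library B) on day 35 and from 48.0 (G) to 173 (E) on day 41, and AFP and TTR among them were at 0 in library A. For 12 mesoderm and stromal markers the sums ran from 92.6 (C) to 410 (B) and from 34.9 (G) to 168 (H). The 4 immune markers with a row summed to 184 to 285 RPKM at the earlier day and 231 to 290 RPKM at the later one, nearly all of it AIF1.

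The 10 factors fell into an upper group from MSX2 down to OVOL1, ESRRB below it, and a very low pair, GCM1 and ASCL2. MSX2 was the most abundant at 75.4 ± 16.2 RPKM (SD, n = 8), above 92.8% of the genes in the table. ID2 followed at 38.0 ± 11.8 RPKM, DLX5 at 37.4 ± 6.86 RPKM and ETS2 at 24.6 ± 12.9 RPKM. DLX3, DLX4 and OVOL1 lay at 15.5 ± 1.47, 14.9 ± 3.10 and 12.4 ± 2.63 RPKM. ESRRB was lower at 2.42 ± 1.04 RPKM, and GCM1 and ASCL2 were near the bottom of the table at 0.316 ± 0.292 and 0.240 ± 0.210 RPKM, above 11.7% and 9.47% of its genes.

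Most neighbours in that order were not separated by their spread. MSX2 exceeded ID2 in 7 of 8 libraries, with overlapping ranges. ID2 exceeded DLX5 in 5 of 8 libraries, DLX5 exceeded ETS2 in 7, ETS2 exceeded DLX3 in 7, DLX3 exceeded DLX4 in 5 and DLX4 exceeded OVOL1 in 6, and the ranges of all these pairs overlapped. OVOL1 lay above ESRRB in all 8 libraries without overlap, with a mean 5.13 times as high, and so did ESRRB above GCM1, at 7.68 times. GCM1 exceeded ASCL2 in 5 of 8 libraries.

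**Figure D1:**
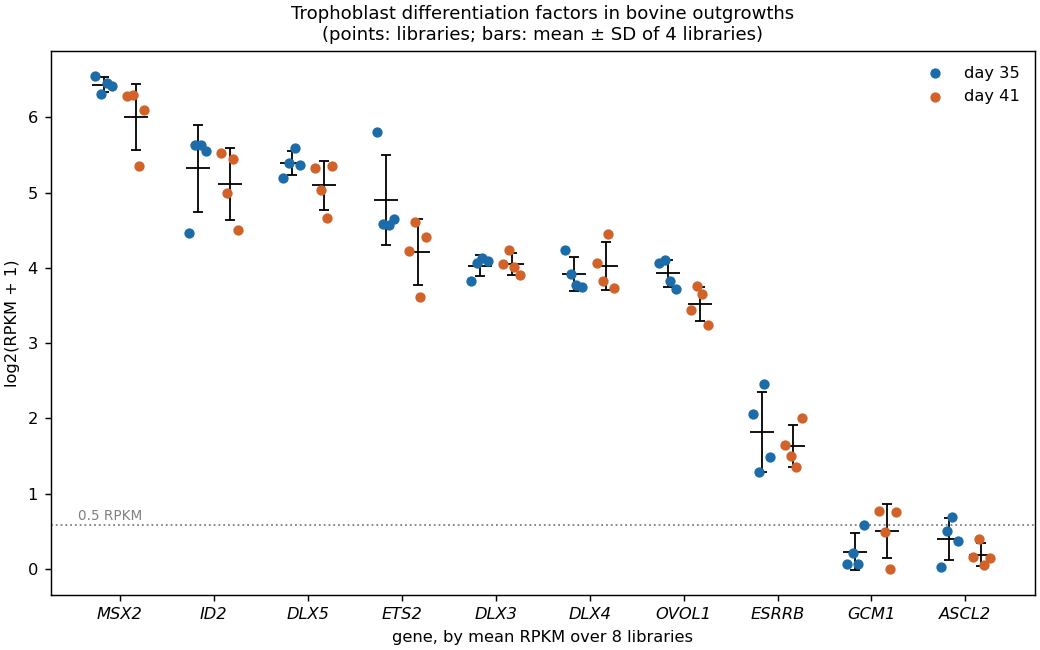
Levels of the 10 factors in each library, as log2(RPKM + 1), with day 35 in blue and day 41 in orange; points are libraries and bars the mean ± SD of 4 libraries. MSX2 is highest on average, and DLX3, DLX4 and OVOL1 lie close together. GCM1 and ASCL2 lie mostly below the dotted line at 0.5 RPKM, which GCM1 passes in 2 libraries and ASCL2 in 1.

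GCM1 (ENSBTAG00000008148, chromosome 23, 25311634 to 25332932 on ARS-UCD1.2, minus strand) was detected in 7 of 8 libraries. Among day 35 outgrowths its level was 0.0452 RPKM in A, 0.152 in B, 0.0448 in C and 0.497 in D, and among day 41 outgrowths 0.698 RPKM in E, 0.401 in F, 0 in G and 0.688 in H. These values stand for 12, 51, 14, 125, 241, 122, 0 and 248 reads. The absence of reads in library G allows up to 0.0110 RPKM, the level of 3 reads, for counting error alone. The days overlapped, since G had none and D lay above F. The day 35 mean was 0.185 ± 0.214 RPKM, the day 41 mean 0.447 ± 0.328 RPKM (n = 4 each), and the difference was not beyond the spread (exact two-sided permutation test on log2(RPKM + 1), p = 0.314, where 70 assignments allow no p under 0.0286). Without library G it was 0.44 on the log2(RPKM + 1) scale against 0.27 with all libraries (exact permutation p = 0.0857).

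ASCL2 (ENSBTAG00000026769, chromosome 29, 49311817 to 49313692) was as scarce. It stood at 0.0200 RPKM in library A, 0.422 in B, 0.617 in C and 0.288 in D, and at 0.113 RPKM in E, 0.320 in F, 0.0388 in G and 0.103 in H, or 3 to 109 reads. Libraries A and G had the lowest values, and only library C passed 0.5 RPKM. The day means of 0.337 ± 0.251 and 0.144 ± 0.122 RPKM (n = 4 each) did not differ beyond the spread (exact permutation p = 0.314, and 0.0857 without library A). Without library C, the difference of -0.21 on the log2(RPKM + 1) scale was -0.11. Adding 1 RPKM to values this small shrinks their log2 differences, as seen beside the authors' values. In the authors' deposited table the log2 fold change is 1.68 (FDR 0.619) for GCM1 and -1.34 (FDR 0.648) for ASCL2.

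Of the homeobox genes, MSX2 (ENSBTAG00000013873, chromosome 20, 6444184 to 6449312) measured 92.8, 78.1, 86.4 and 84.6 RPKM in libraries A to D, then 76.6, 77.4, 39.9 and 67.5 RPKM in E to H. Every day 35 library was above every day 41 library, but by less than 1 RPKM at the closest point, and library G was far below its day. The means were 85.5 ± 6.07 and 65.3 ± 17.5 RPKM. Its log2 fold change, day 41 over day 35, was -0.43 (SE 0.20, 95% interval -0.88 to 0.03), and its adjusted p was 0.454 in limma-trend, the moderated test fitted over all 12582 genes that reached the filter. Without library G the fold change was -0.21. The exact two-sided permutation test of MSX2 alone gave p = 0.0286, the smallest that 4 against 4 allows, with no adjustment for the genes tested. Of the 8 tested factors, MSX2 was the 1 whose days did not overlap, as was so for 8.20% of all genes tested.

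DLX5 (ENSBTAG00000018645, chromosome 4, 14404123 to 14408479) measured 35.7, 41.1, 47.1 and 40.1 RPKM in A to D, then 39.0, 31.6, 24.4 and 40.0 RPKM in E to H, with its lowest value in library G. The days overlapped, and the log2 fold change was -0.29 (SE 0.16, limma-trend adjusted p = 0.522), or -0.15 without library G. DLX3 (ENSBTAG00000017409, chromosome 19, 36662421 to 36667620), needed for the mouse placenta, varied least of all, between 13.2 and 17.9 RPKM. Its day means were 15.4 ± 1.48 and 15.6 ± 1.68 RPKM, and the 95% interval of its log2 fold change ran from -0.22 to 0.26. DLX4 (ENSBTAG00000007353, chromosome 19, 36682225 to 36688039), a homeobox gene expressed in human placenta, lies 14604 bases from DLX3 on the other strand. Its values were 17.8, 14.1, 12.6 and 12.4 RPKM in A to D, then 15.8, 13.2, 20.9 and 12.3 RPKM in E to H, so that libraries A and G were highest here. Its log2 fold change was 0.11 (SE 0.18), with -0.038 when library G and 0.21 when library A was left out. DLX3 itself turned to -0.048 without library A. A stretch of 670 bases of DLX4 overlaps ENSBTAG00000045805 on the opposite strand, at a mean of 4.28 RPKM, and reads in that stretch are uncertain because no source says whether strand was used.

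OVOL1 (ENSBTAG00000012656, chromosome 29, 43908693 to 43919733) had the smallest limma-trend p of the 8 tested factors. Its levels were 15.7, 16.1, 13.2 and 12.2 RPKM in libraries A to D, then 9.81, 12.5, 11.5 and 8.45 RPKM in E to H. Only library F of day 41 reached into the day 35 range, just above library D. The day means were 14.3 ± 1.92 and 10.6 ± 1.80 RPKM (log2 fold change -0.41, SE 0.14, 95% interval -0.73 to -0.09). The exact permutation test of OVOL1 alone gave p = 0.0571. Its unadjusted p by limma-trend was 0.0185 and its adjusted p 0.332, and an unadjusted p under 0.05 occurred in 11.7% of the genes tested. With libraries weighted by quality its adjusted p was 0.0640 in limma-voom on recovered reads and 0.0502 in limma-trend with array weights, and the authors' deposited table gives an FDR of 0.317. Its 95% interval included 0 when library B or library H was left out, with fold changes of -0.35 and -0.31. Its paralog OVOL2 was the more abundant in all 8 libraries, at 1.61 to 3.58 times the level of OVOL1.

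ETS2 (ENSBTAG00000009214, chromosome 1, 151161814 to 151181631) measured 54.7, 23.0, 22.8 and 24.0 RPKM in libraries A to D, then 17.6, 23.5, 11.2 and 20.2 RPKM in E to H. Library A held more than any other, and the remaining day 35 libraries lay within the same range as E, F and H or just above it. The log2 fold change was -0.69 (SE 0.31, adjusted p = 0.439 by limma-trend). It was -0.39 without library A, -0.49 without library G, where ETS2 was lowest, and -0.19 without both. Interferon tau, whose promoter ETS2 activates in cattle, was picked for display after its values were seen. IFNT reached 25.5 RPKM in A, where ETS2 was highest, and 24.1 RPKM in C. It was 1.06 RPKM in B and 0.262 RPKM in D, where ETS2 was nearly as in C. Only day 35 libraries are given here, and the correlation of ETS2 with IFNT was not tested.

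ID2 (ENSBTAG00000021187, chromosome 11, 88604880 to 88607401) measured 21.05 RPKM in A, then 48.7, 48.7 and 45.8 RPKM in B, C and D. In E to H it measured 45.2, 30.7, 42.4 and 21.6 RPKM. The 2 lowest libraries, A and H, were of different days. The log2 fold change was -0.21 (SE 0.32, 95% interval -0.92 to 0.51), which was -0.49 without library A and -0.0011 without library H. ESRRB (ENSBTAG00000012285, chromosome 10, 87626557 to 87812758) measured 3.15, 1.43, 4.47 and 1.80 RPKM in A to D, then 2.11, 1.83, 1.56 and 3.02 RPKM in E to H, highest in C and A. Its log2 fold change was -0.19 (SE 0.26), with an interval of -0.79 to 0.41. Library C set its sign, with 0.018 when it was left out, and the value was -0.37 without library B.

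Between the days, 0 of the 8 tested factors passed an adjusted p of 0.05 by limma-trend, where 0.0477% of all genes tested did. In limma-voom with quality weights 0 of 8 passed against 5.18% of genes, in limma-trend with array weights 0 of 8 against 8.30%, and for the authors' deposited values 0 of 10 have an FDR under 0.05 against 1.76%. Values were lower on day 41 for 6 of the 8, where 47.4% of all genes were lower, and the median log2 fold change was -0.25 against 0.01 over all genes. With 1 library left out that median ran from -0.36 (without A) to -0.16 (without C). Values were also lower on day 41 for 9 of 10 trophectoderm identity genes (median -0.28) and for 7 of 8 stromal markers (median -0.66), and the part of these in the factors' values was not tested. The intervals show how little could be seen with 4 outgrowths a day: they exclude a change of more than 0.26 for DLX3, but for ETS2 they reach from -1.41 to 0.03.

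**Figure D2:**
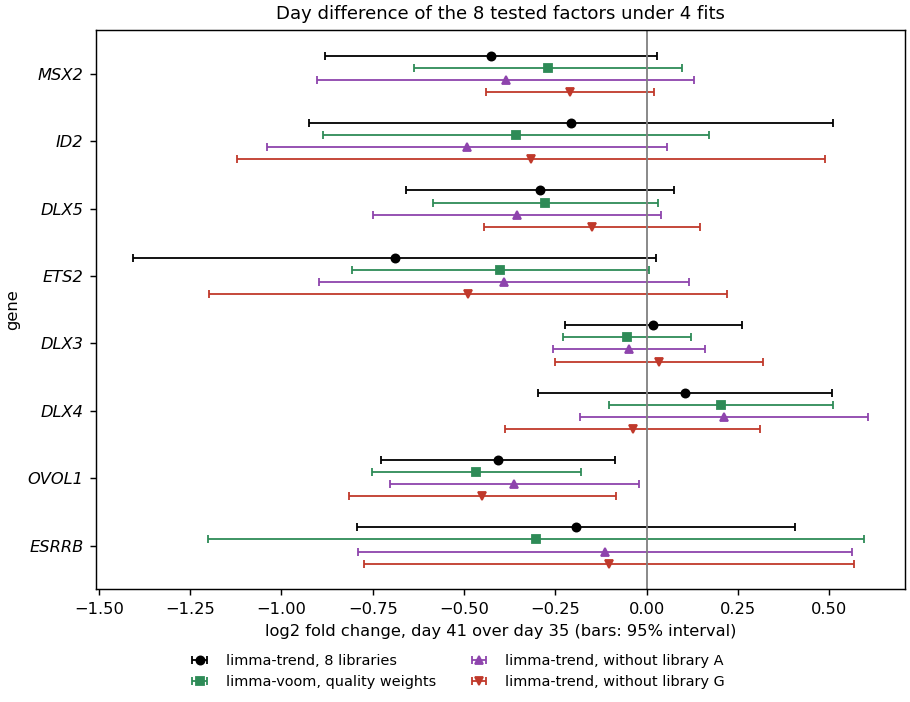
Log2 fold change of the 8 tested factors, day 41 over day 35, with 95% intervals from 4 fits: limma-trend with 8 libraries, limma-voom with quality weights, and limma-trend without library A or without library G. The interval of OVOL1 lies below 0 in all 4 fits, and those of the other genes include 0 in each of the 4.

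Outgrowths of one day differed from each other. Library G held the lowest value of GCM1, DLX5, MSX2 and ETS2 and the highest of DLX4. Library A held the lowest value of DLX3, ASCL2 and ID2 and the highest of MSX2 and ETS2. Each of these libraries thus held an extreme for 5 of the 10 factors, against 3 in B, 3 in C, 2 in H, 1 each in E and F and 0 in D. Library G also had the lowest summed hypoblast, stromal and trophectoderm identity markers, and library A the lowest mean correlation with other libraries, and the part of these in the factors' values was not tested.

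**Figure D3:**
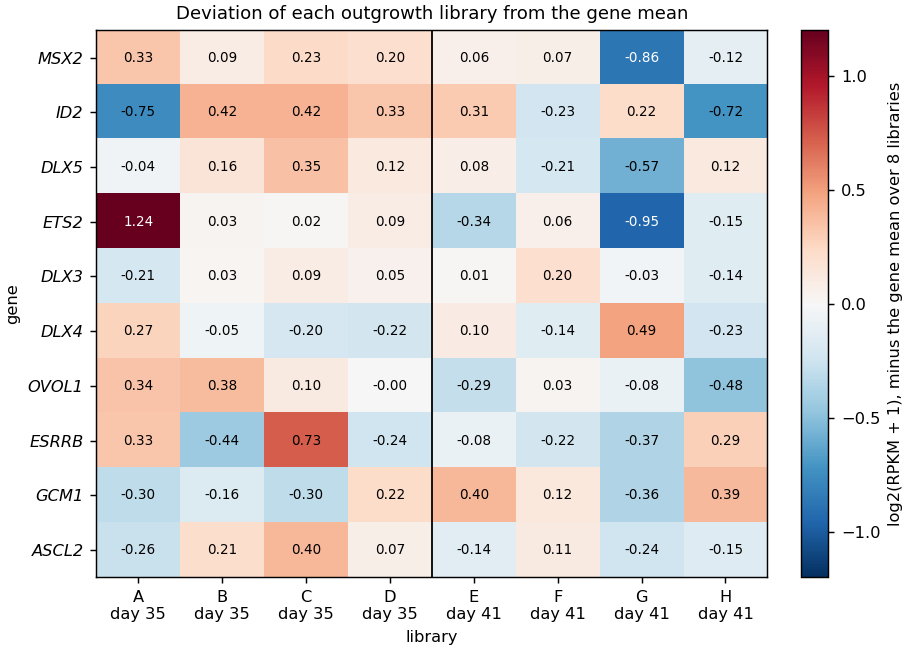
Deviation of each library from the gene mean over 8 libraries, in log2(RPKM + 1), with red above and blue below the mean. ETS2 is far above its mean in library A and far below it in G, ID2 is low in A and H, and MSX2 and DLX5 are low in G.

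Pairs of factors were compared across the 8 outgrowths by correlation of log2(RPKM + 1), with exact permutation tests over 40320 orders. Of the 28 pairs among the 8 tested factors, 0 passed an adjusted p of 0.05 and 1 had an unadjusted p under 0.05 by Pearson r. That pair was DLX4 and DLX5 (Pearson r = -0.74, exact p = 0.0328, adjusted p = 0.514; Spearman rho = -0.60, exact p = 0.132, adjusted p = 0.705). Without libraries A and G, the farthest from the median of DLX4, r was -0.16. Leaving out G alone gave r = -0.34 (exact permutation p = 0.459) and leaving out A alone gave r = -0.79 (exact permutation p = 0.0480), so of the pair it rested on library G. With the day means removed and orders permuted within days, its r was -0.76 (exact permutation p = 0.0625). By Spearman rho 0 pairs passed, and the unadjusted p was under 0.05 for MSX2 with ETS2 and for OVOL1 with MSX2. MSX2 and ETS2 had r = 0.79 (exact permutation p = 0.0533, adjusted p = 0.514), with rho = 0.81 (exact permutation p = 0.0218, adjusted p = 0.610) and r = 0.51 without libraries A and G. OVOL1 and MSX2 had rho = 0.74 (exact permutation p = 0.0458, adjusted p = 0.642) and r = 0.37 (exact permutation p = 0.385, adjusted p = 0.788). DLX3 and ID2 had r = 0.61 (exact permutation p = 0.105, adjusted p = 0.685) with rho = 0.57 (exact permutation p = 0.151, adjusted p = 0.705) and r = 0.92 without libraries A and F. DLX5 and MSX2 had r = 0.78 (exact permutation p = 0.0551, adjusted p = 0.514) with rho = 0.48 (exact permutation p = 0.243, adjusted p = 0.810), and r = -0.080 without libraries F and G.

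ETS2, ID2 and ESRRB varied most among the tested factors, with SDs of 0.61, 0.50 and 0.41 on the log2(RPKM + 1) scale. The genes whose 8 library values ran most like theirs were named by the highest Pearson r among tested genes with a symbol, and since they were picked for it no test applies. For ETS2 these were PGBD1 (r = 0.98), NECAP2 (0.97) and EPHB6 (0.97), with rho of 0.83, 0.83 and 0.81 and r of 0.67, 0.82 and 0.56 without libraries A and G. EPHB6, an Eph receptor that lacks kinase activity, was at 4.85 RPKM in library A and 0.105 RPKM in G. For ID2 they were SHANK2 (0.95), SCNN1G (0.94), a subunit of the epithelial sodium channel, and NCAPD3 (0.94), a condensin subunit, with rho of 0.67, 0.79 and 0.95 and r of 0.74, 0.63 and 0.83 without A and H. For ESRRB they were SPNS3 (0.97), LIN52 (0.88) and PLEK2 (0.88), with rho of 0.95, 0.95 and 0.76 and r of 0.94, 0.61 and 0.77 without A and C.

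The factors were also set beside listed paralogs, which for ETS2 was ETS1 alone and not the whole ETS family. Of the summed RPKM of DLX2 to DLX6, 65.7 to 88.1 per library, DLX5 made up 37.2% to 53.5%. DLX6, next to DLX5 on chromosome 4, was at 4.79 RPKM on average, and DLX5 exceeded it 6.66 to 8.91 times in each library. DLX2 averaged 4.595 RPKM and was lowest in library G at 1.58 RPKM. MSX1 reached 44.1 RPKM on average, and exceeded MSX2 in library G, at 72.6 against 39.9 RPKM, while MSX2 was the higher in the 7 others. ETS1 averaged 13.0 RPKM, and ETS2 exceeded it in all 8 libraries, by 1.04 to 3.69 times. The paralog ESRRA stood at 11.5 RPKM, above ESRRB in all 8 libraries, and ESRRG at 0.127 RPKM.

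ID2 made up 66.0% to 95.4% of the summed level of the 4 ID genes. ID1, ID3 and ID4 together were at 25.1 RPKM in library B and at 2.03 to 10.3 RPKM in the others, with the lowest sum in library G. Library B also had the highest stromal and hypoblast marker sums, with the collagen COL1A1 at 76.4 RPKM against 0.405 to 13.6 RPKM elsewhere, and G the lowest sums. Their part in the ID1, ID3 and ID4 levels was not tested. ID2 itself was not highest in library B beyond C, at 48.7 RPKM in both. ID2 exceeded the summed level of TCF3, TCF4 and TCF12, the E proteins it binds, in all 8 libraries, by 1.03 times in library H to 2.60 times in library C. HAND1, a helix-loop-helix partner of E proteins that acts in trophoblast giant cells in mouse, was far more abundant at 306 RPKM, 5.95 to 12.7 times the level of ID2.

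**Figure D4:**
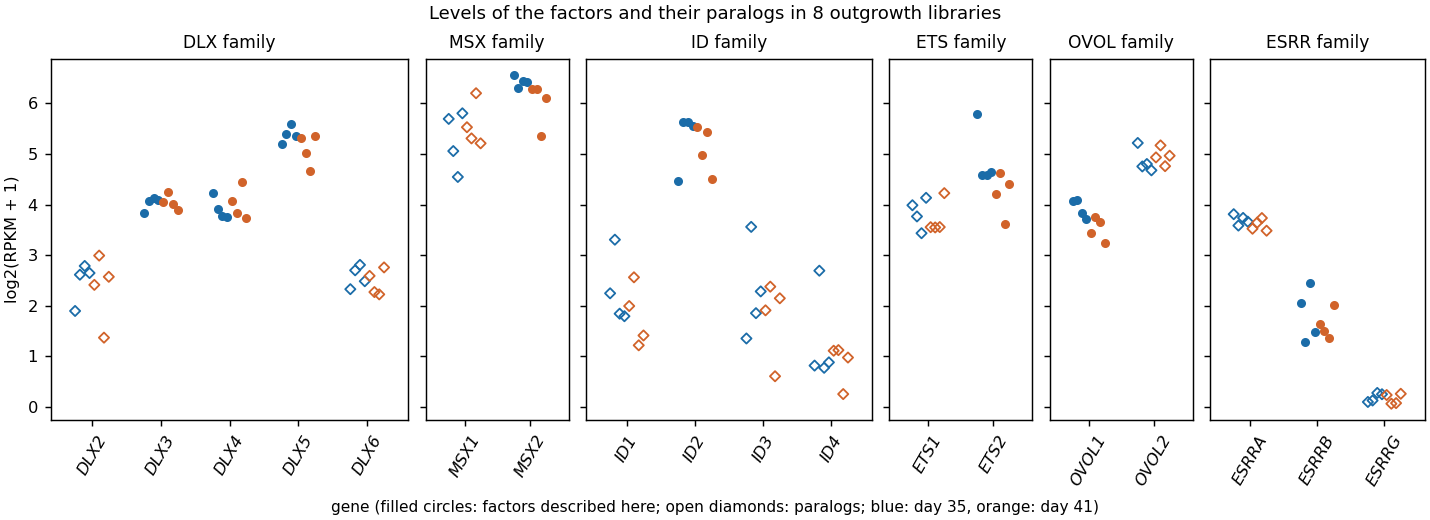
Levels of the factors (filled circles) and of the paralogs with a row (open diamonds) in each library, as log2(RPKM + 1), with day 35 in blue and day 41 in orange. DLX5, MSX2, ID2 and ETS2 have the highest mean among the genes shown in their panels, which for ETS2 is ETS1 alone. OVOL2 lies above OVOL1 and ESRRA above ESRRB in all 8 libraries.

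The genes around these factors were also tested in the fit over all genes. Among 12 tested factors of the trophoblast progenitor and epithelial program 0 passed in either direction by limma-trend, with 5 higher and 7 lower values and a median log2 fold change of -0.11. TP63, a factor of dividing trophoblast and basal epithelia, averaged 16.9 ± 4.98 RPKM at day 35, where library A had 9.78 RPKM, and 23.4 ± 0.913 RPKM at day 41 (0.49, SE 0.21, adjusted p = 0.407). GRHL2, an epithelial factor, averaged 8.36 ± 0.294 and 9.63 ± 0.418 RPKM (0.18, SE 0.08, adjusted p = 0.426), and GATA2 at 112 ± 13.8 and 93.9 ± 9.78 RPKM (adjusted p = 0.447).

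Of 9 tested paralogs 0 passed, with 7 lower values and a median of -0.12, and of 13 tested partners and cofactors 0 passed, with 10 higher values and a median of 0.17 that was 0.04 without library A. BMP signalling induces ID genes and MSX2 in many tissues, and of 16 tested genes of that pathway 0 passed by limma-trend, with 11 higher values and a median of 0.10 that was 0.0067 without library A. SMAD4, the shared mediator of BMP and TGF-beta signals, had a log2 fold change of 0.23 (SE 0.08, adjusted p = 0.321) by limma-trend and of 0.30 (adjusted p = 0.0334) in limma-voom with quality weights, the 1 gene of 16 to pass there, where 5.18% of all genes did. Among 21 tested products of differentiated trophoblast 0 passed by limma-trend, with 13 lower values and a median of -0.26 that was -0.11 without library A, and SLCO2A1, a prostaglandin carrier, was lower in limma-voom with quality weights (-0.95, adjusted p = 0.0469). It was the 1 of 21 to pass in that fit, a share near that of all genes, and the list's median there was -0.022, with 10 higher and 11 lower values. Of the marker lists, 0 of 9 hypoblast, 0 of 8 stromal, 0 of 3 immune and 0 of 10 trophectoderm identity genes passed by limma-trend. In limma-voom with quality weights CD14 was higher (0.47, adjusted p = 0.0469), the 1 of 3 immune genes to pass, where 5.18% of all genes did. The other immune genes there were AIF1 at 0.09 (adjusted p = 0.725) and CD68 at -0.13 (adjusted p = 0.509).

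GCM1 was set beside the 21 products after its values had been seen. Where GCM1 was at 0, in library G, the placental lactogen CSH2, the prolactin-related genes PRP1 and PRP4 and the placental growth factor PGF were also listed at 0. In library C, with 14 reads of GCM1, they were at 0.243, 1.38, 0.768 and 0.279 RPKM. In library E, which had the most GCM1, all 4 were highest, with PRP1 at 78.5, PRP4 at 57.3 and PGF at 11.8 RPKM. Library A went against this order: with GCM1 at 0.0452 RPKM, PRP1 was at 18.3 RPKM and CSH2 at 5.53 RPKM, much as in library D with 14.8 and 7.13 RPKM at 0.497 RPKM of GCM1.

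Across all 8 libraries 0 of 21 Pearson correlations of GCM1 with these products passed an adjusted p of 0.05 (exact permutation tests). An unadjusted p under 0.05 was found for 5, those with PGF, PRP4, PRP1, CSH2 and TKDP1, a Kunitz-domain protein of the trophoblast. In that order r was 0.81, 0.74, 0.71, 0.71 and 0.64, and rho was 0.90, 0.83, 0.74, 0.79 and 0.81. The share of all tested genes with such a p beside GCM1 was not computed. PGF, PRP4, PRP1 and CSH2 were all at 0 RPKM in library G and all highest in E, so they do not count as separate results. With a pseudocount of 0.1 RPKM in place of 1, all 5 passed, with adjusted p of 0.0271 for PGF and 0.0408 for the others (exact permutation tests). That count was 0 when library G was left out as well, with r of 0.77 for PGF and 0.64 for CSH2. With the pseudocount of 1, libraries E and H were the farthest from the median of GCM1. Without them r was 0.82 for PGF, 0.71 for PRP4, 0.65 for PRP1, 0.70 for CSH2 and 0.60 for TKDP1. Libraries C and G lie apart from the others in PGF, PRP4, PRP1 and CSH2. After the values were seen, r was therefore also taken without C and G. Over the other 6 libraries r was 0.70 for PGF, 0.49 for PRP4, 0.41 for PRP1, 0.40 for CSH2 and 0.81 for TKDP1. The rho values there were 0.77, 0.60, 0.37, 0.49 and 0.89. TKDP1 was lowest in G and A, at 186 and 700 RPKM, and at 1554 to 2173 RPKM in the others, C included. Over the 6 libraries other than C and G, 0 of 21 products passed (smallest adjusted p = 0.321 by exact permutation). An unadjusted p under 0.05 was found there for 1, TKDP1 (exact permutation p = 0.0153).

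**Figure D5:**
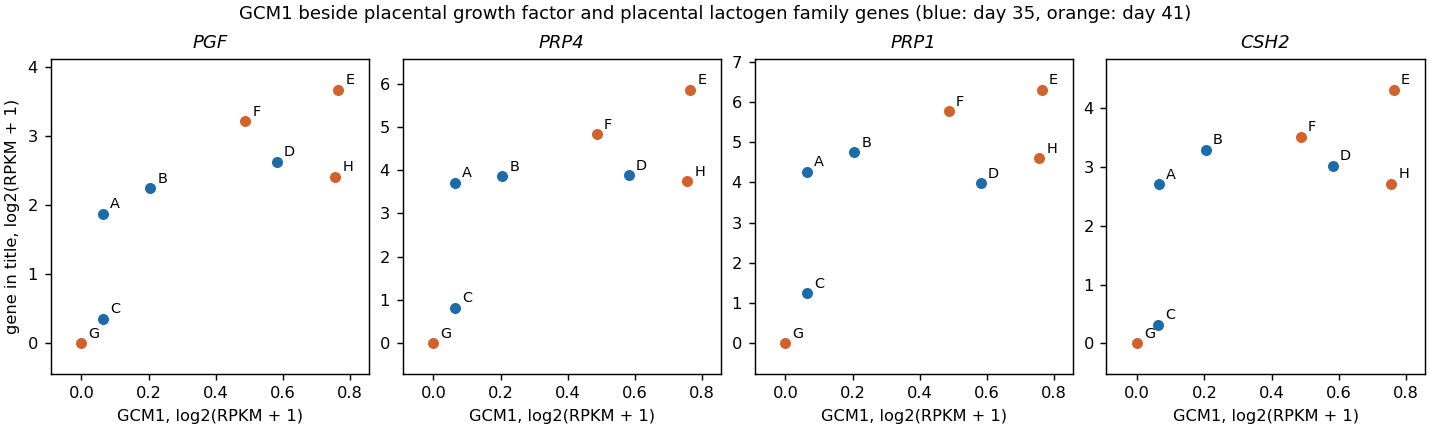
GCM1 (horizontal) beside PGF, PRP4, PRP1 and CSH2 (vertical) in the 8 libraries, all as log2(RPKM + 1), with day 35 in blue, day 41 in orange and letters for libraries. Libraries G and C have the lowest values of all 5 genes and E the highest, and A has intermediate values of the 4 products with as little GCM1 as C.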

How the data were processed

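RNA of 8 outgrowth libraries was sequenced. Per the submitters' processing notes, FastQC, HISAT2, featureCounts, edgeR and the build ARS-UCD1.2 were used, and versions are not given in the sources used here. The deposited table holds RPKM that the authors scaled per library. It also holds the authors' own comparison, with log2 fold changes and mean log2 CPM, a likelihood ratio score, and p-values and FDR, all as deposited per the file headers. The deposited exon lengths, another column of the table, gave the reads: RPKM times length was a whole multiple of 1 step per library within 0.01 for 100% of values.

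For the comparison of days, limma-trend was run on log2(RPKM + 1) (R 4.3.3, limma 3.58.1, no covariate, two-sided, Benjamini-Hochberg over 12582 genes). Fold changes on that scale understate low genes. Correlations used exact permutation tests in Python 3.11.15 with numpy 2.4.6. Scripts were tested on simulated data. Named were all 10 factors, up to 4 genes per list by smallest p, paralogs of at least 0.5 RPKM on average and the 3 genes most like each of the 3 most variable factors. ESRRG, E proteins, HAND1, keratins, COL1A1, AFP, TTR, AIF1, IFNT and the products beside GCM1 were singled out after their values were seen. PAG1 in the product list is the gene on chromosome 29. The members and lists were chosen with earlier results of these data known. Alternatives were other pseudocounts, filters, scalings and weights, limma-voom on recovered reads, and each library left out. Without molecular identifiers, PCR reads are not independent molecules, so the limit for 0 reads covers counting error only. Labels describe outgrowths of individual embryos. The p-values judge day differences against the variation between these libraries, and correlations against reorderings of them. Both take the libraries as independent, and whether the outgrowth numbered 1 on both days was one embryo is not known.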

Additional observations from a re-analysis of the deposited data

Results flagged for a closer look

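Of 20 groups of 4 libraries (10 factors on each day), 2 had a library far from the other 3, where chance flags about 1 in 20 groups. ETS2 in library A measured 54.7 RPKM, and libraries B to D measured 22.8 to 24.0 RPKM. ID2 in the same library measured 21.05 RPKM, and B to D measured 45.8 to 48.7 RPKM. Library A also had the lowest mean correlation with the other libraries, at 0.954, and the lowest array weight, at 0.128, and the part of this in the values of ETS2 and ID2 was not tested.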

How the results depend on the processing

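No paired analysis was possible because the columns carry no outgrowth numbers and the labels of the days share only 1 number. None of the 8 tested factors passed between the days under any of 20 alternatives, and GCM1 and ASCL2, which entered 1 of these fits, the one without a filter, did not pass there. The count of all genes called, 6 in limma-trend, was 3 with a pseudocount of 0.1, 3 without a filter, 10 with upper-quartile scaling, 2 with limma-voom, 652 with its quality weights and 1044 with array weights. It ran from 0 (without B, C, D, E or F, with 1040, 1125, 1705, 1051 and 1150 genes at an unadjusted p under 0.05) to 43 (without A), was 46 without A and G, and with limma-voom and quality weights it was 740 without A and 244 without G. The direction of DLX3 turned with array weights (-0.051), quality weights (-0.054), without A (-0.048) or F (-0.045), with quality weights without A (-0.068) or G (-0.049), and without both (-0.034). With 1 library left out, DLX3 ran to 0.069, DLX4 from -0.038 (without G) to 0.21 and ESRRB from -0.37 to 0.018 (without C). Without F, 1 of 28 pairs of factors passed (DLX3 and ID2, r = 0.95, adjusted p = 0.0389 by exact permutation). The count of GCM1 correlations by Pearson r was 5 with a pseudocount of 0.1, and 0 to 1 with a library left out, 1 of them without C (TKDP1). By Spearman rho it was 2 without H, PRP4 and PGF (rho = 0.96 and adjusted p = 0.0292 for each, by exact permutation). The cause of these shifts was not tested.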
